A study of Mus musculus with 20 samples.

Results

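Apolipoproteins and the genes that handle lipoproteins were examined in mouse liver as a list of 31 genes, of which 30 were measured. A gene was included when a probe set of the array was annotated with its symbol alone, which gave 60 probe sets of 34945 annotated with 1 symbol, or 30 genes of 18193. No such probe set was found for Lipc, the hepatic lipase, and it was not analysed here. The members fall into 13 apolipoproteins, 2 genes of lipoprotein assembly, 8 lipases, plasma enzymes and their partners, and 7 receptors and transporters. Where a gene had several probe sets, the one with the highest mean over all arrays stands for it, unless another is named.

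Livers came from 20 male C57BL/6J mice aged 8 weeks, all fasted for 16 h and all fed 45 kcal% fat for 4 weeks. The 10 mice called 002MSXH had 0.02% of a maple syrup extract, MSXH, in that diet, and the 10 mice called HFD had the diet alone. Total RNA of each liver was put on 1 Affymetrix 3' expression array. The series text also names a low-fat group and a group with more extract; neither was analysed here.

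Lipoproteins carry triglyceride and cholesterol through the blood, wrapped in phospholipid and apolipoproteins. Liver builds very low density lipoprotein around apolipoprotein B, exports it, and takes remnants and high density lipoprotein cholesterol back up through receptors. Lipases in the capillaries and lysosomes release the fatty acids, and plasma enzymes and transporters remodel high density lipoprotein.

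The deposited values lay between 5.17 and 15.01 on a scale taken as log2, and array medians lay between 6.5216 and 6.5226. The spread between arrays was compressed, with a median SD of 1.07e-05 per probe set, so no fold was read. Each member has instead a standardized difference with its 95% interval: the 002MSXH mean less the HFD mean, in units of the SD that both groups share. The file's precision also limits the members: 7 of 30 had a pooled SD under 1e-06, and Apoa1 took 14 distinct values and Apoa2 15 on the 20 arrays. The hepatocyte list (7 of 8 markers measured) averaged 13.50 to 13.51 in 002MSXH and 13.50 to 13.51 in HFD. On 002MSXH mice 4 and 6 the 10 skeletal muscle markers averaged 8.35 and 7.68, against 6.25 to 6.35 in the other 002MSXH mice and 6.25 to 6.33 in HFD mice. Results that rest on these arrays are given with and without them, except for some correlations, as stated there. The levels of different genes were not compared, since each probe set has its own response.

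Promoters of 4 of the 5 members whose deposited values moved together from mouse to mouse are shown, since the results describe their correlations. Of the 30 measured members, 21 were found in the RefSeq promoter table for GRCm38.p6; the Gpihbp1 promoter is not used here. The table holds 300 bases around each gene start, mostly before it. Apoa1 and Apoa4 lie in 1 cluster on chromosome 9, Apom on chromosome 17 and Pon3 on chromosome 6. Capitals mark, on either strand, AGGTCA, the half-site of nuclear receptors, AGTTCA, a variant of it, and CAAAGTTCA, a longer form that contains AGTTCA. The last 2 were searched after the sequences had been read.
Apoa1 promoter, chr9:46228380-46228679, plus strand: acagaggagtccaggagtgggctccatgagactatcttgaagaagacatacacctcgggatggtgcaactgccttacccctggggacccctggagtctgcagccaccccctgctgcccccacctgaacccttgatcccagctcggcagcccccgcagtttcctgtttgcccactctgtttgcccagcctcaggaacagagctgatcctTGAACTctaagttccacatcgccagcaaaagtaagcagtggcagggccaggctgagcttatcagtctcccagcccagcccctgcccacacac
Apoa4 promoter, chr9:46240594-46240893, plus strand: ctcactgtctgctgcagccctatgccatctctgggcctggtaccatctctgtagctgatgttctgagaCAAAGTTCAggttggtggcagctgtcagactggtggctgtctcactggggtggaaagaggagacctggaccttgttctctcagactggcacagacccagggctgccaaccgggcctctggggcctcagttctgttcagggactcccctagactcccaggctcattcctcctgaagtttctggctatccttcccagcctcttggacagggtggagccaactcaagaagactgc
Apom promoter, chr17:35131752-35132051, minus strand: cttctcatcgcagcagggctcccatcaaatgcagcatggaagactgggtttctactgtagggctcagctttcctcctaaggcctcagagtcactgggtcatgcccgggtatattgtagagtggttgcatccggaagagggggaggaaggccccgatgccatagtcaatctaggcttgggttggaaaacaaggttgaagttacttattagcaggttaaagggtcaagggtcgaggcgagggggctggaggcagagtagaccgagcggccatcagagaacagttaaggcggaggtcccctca
Pon3 promoter, chr6:5256184-5256483, minus strand: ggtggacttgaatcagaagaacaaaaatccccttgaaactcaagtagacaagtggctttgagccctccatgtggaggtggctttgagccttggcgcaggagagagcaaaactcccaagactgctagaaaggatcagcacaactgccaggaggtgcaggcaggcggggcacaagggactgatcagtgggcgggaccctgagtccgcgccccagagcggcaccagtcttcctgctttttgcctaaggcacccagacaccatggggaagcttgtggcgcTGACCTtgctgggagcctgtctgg

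AGTTCA stood in both the Apoa1 and the Apoa4 promoter and in 14.0% of the 32851 promoters of the table. It also stood in promoters of Sar1b, Abca1 and Lipc, so it was not particular to the members that moved together. CAAAGTTCA stood in the promoter of 1 member, Apoa4, and in 0.390% of all promoters. AGGTCA stood in the Pon3 promoter, after the gene start, and in 16.3% of all promoters. Promoters of Apoa2, Apoc2, Apoc4, Apoh and Lipc had it as well. TATAAA, the TATA box, was searched too and stood in 13.6% of all promoters and in none of the 4 shown. None of these motifs stood in the Apom window. A match is a description of the letters, not a site.

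Liver on the extract diet and liver on the high-fat diet alone did not show a detectable difference in any member of the list. The comparison asks what the extract did to liver gene expression during high-fat feeding. With limma and the Benjamini-Hochberg adjustment over all genes, 0 of 30 members passed an adjusted p of 0.05, as did 0 of 18193 genes (0%). The smallest adjusted p was 0.388 for a member, Mttp, and 0.0728 over all genes. At an unadjusted p under 0.05 stood 1 member of 30 (3.33%), against 10.9% of all genes. Its 002MSXH mean was the lower, as in 4.31% of all genes at that p, and 0 members were on the other side, where 6.58% of all genes were. The 002MSXH mean was above the HFD mean in 16 members and below it in 14, and it was above in 54.7% of all genes. The median standardized difference was 0.09 over the members and 0.07 over all genes. These directions hold on the deposited scale: after centring of the arrays the 002MSXH mean was above in 2 of 30 members, with a median over all genes of -0.66, and after quantile normalization in 3 of the 19 members that still varied, with a median over all genes of -0.55. Without mice 4 and 6, 16 of 30 members were above on the deposited scale and 10 of 30 after centring, with medians over all genes of 0.07 and -0.03. Quantile normalization without these mice gave 12 of the 16 members that still varied, with a median over all genes of 0.11. With 10 mice against 10 the intervals were wide, as the plot of the 30 intervals shows.

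**Figure D1:**
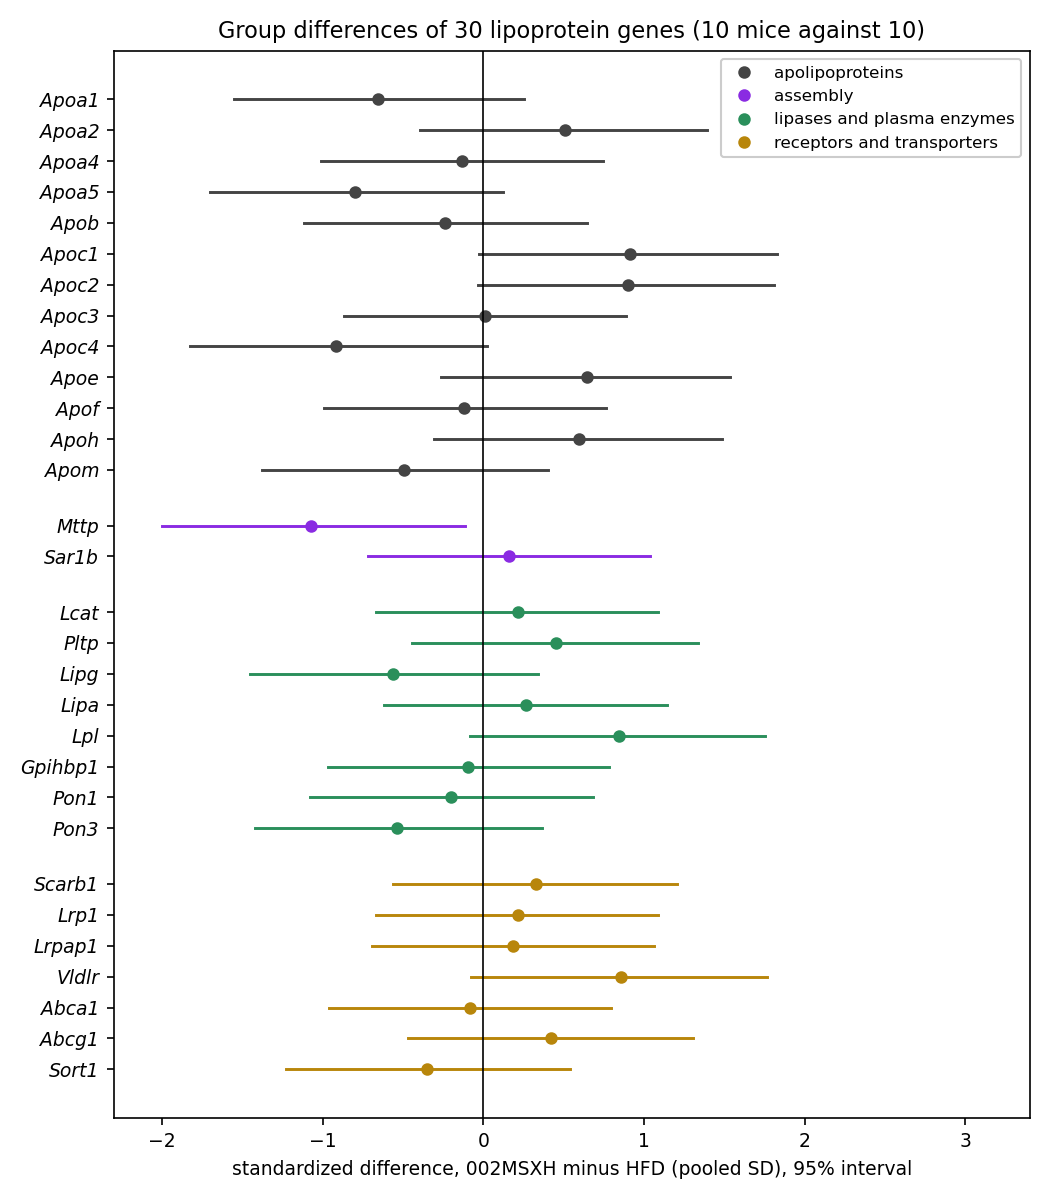
Standardized difference (002MSXH minus HFD, in units of the pooled SD; horizontal axis) of each of the 30 measured members, with its 95% interval, grouped and coloured by role (n = 10 mice each). The interval of Mttp, -2.0 to -0.11, is the one that leaves out 0, before any adjustment for the number of genes.

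No apolipoprotein passed the test between the diets. Of 13, 6 had a 002MSXH mean above that of HFD and 7 below, with a median standardized difference of -0.12, and none was at an unadjusted p under 0.05. The C apolipoproteins, which sit on triglyceride-rich particles and regulate lipoprotein lipase and remnant uptake, had the highest and the lowest standardized differences of the role.

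Apoc2 (gene ID 11813), the activator of lipoprotein lipase, had a mean level of 11.54. Its offsets from the mean of all arrays were -1.26e-04, 3.70e-05 and 1.95e-04 in 002MSXH mice (lowest, median, highest), against -1.15e-04, -3.70e-05 and 4.00e-05 in HFD mice. All HFD mice lay within the 002MSXH range. Apoc2 had a standardized difference of 0.90 (-0.04 to 1.81; limma p = 0.0548, adjusted p = 0.476), and the 002MSXH mouse was the higher in 74 of 100 pairs.

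Apoc1 (gene ID 11812), an inhibitor of lipoprotein uptake and of lipase activity, had a mean level of 14.02. Its offsets were -2.88e-07, 3.57e-07 and 1.07e-06 in 002MSXH mice, against -1.69e-06, -2.83e-07 and 1.43e-06 in HFD mice. All 002MSXH mice lay within the HFD range. For Apoc1 the standardized difference was 0.91 (-0.03 to 1.82; limma p = 0.0677, adjusted p = 0.503), with 76 of 100 pairs higher in 002MSXH.

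Apoa5 (gene ID 66113), made by the liver and known to lower plasma triglyceride, had a mean level of 13.52. Its offsets were -1.19e-05, -2.37e-06 and 4.20e-06 in 002MSXH mice, against -7.36e-06, 2.10e-06 and 1.84e-05 in HFD mice. The groups overlapped, and the highest mice were HFD mice. The standardized difference was -0.80 (-1.70 to 0.12; limma p = 0.0849, adjusted p = 0.535), with 33 of 100 pairs higher in 002MSXH.

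The other apolipoproteins gave intervals that held 0. Apoc4, a small apolipoprotein of triglyceride-rich particles, had a level of 13.20 and a standardized difference of -0.91. Apoc3, an inhibitor of triglyceride clearance, had a level of 14.19 and a difference of 0.01. Apoe, the ligand for remnant uptake, had a level of 14.32 and a difference of 0.64. Apob, the structural protein of very low density lipoprotein, had a level of 13.40 and a difference of -0.24. Among the proteins of high density lipoprotein, Apoa1, its main scaffold, had a level of 14.61 and a difference of -0.66, with the 4 probe sets all below 0. Apoa2, the other main protein of that particle, had a level of 14.42 and a difference of 0.51. Apoa4, made by mouse liver and intestine, had a level of 12.00 and a difference of -0.13. Apom, the carrier of sphingosine-1-phosphate, had a level of 12.15 and a difference of -0.49, and its second probe set stood at 0.28. Apof, known in human plasma as an inhibitor of lipid transfer, had a level of 12.83 and a difference of -0.12. Apoh, a phospholipid-binding plasma protein, had a level of 14.02 and a difference of 0.60.

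In lipoprotein assembly, Mttp (gene ID 17777), which loads lipid onto apolipoprotein B, was the member at an unadjusted p under 0.05. Its mean level was 10.93, and its offsets were -4.47e-05, -1.22e-05 and 2.65e-05 in 002MSXH mice, against -3.29e-05, 1.81e-05 and 4.19e-05 in HFD mice. Most HFD mice lay above the middle of the 002MSXH mice, but the ranges overlapped. The standardized difference was -1.07 (-2.0 to -0.11; limma p = 0.0255, adjusted p = 0.388), with 22 of 100 pairs higher in 002MSXH. Without mice 4 and 6 it was -1.19 (adjusted p = 0.401), and as the mean of both probe sets it was -0.85 (limma p = 0.0688, adjusted p = 0.496). After quantile normalization it was -0.17, and with mice 4 and 6 left out as well it was 0.41. Its second probe set gave -0.68, and both probe sets ordered the mice alike (r = 0.849 over the 20 mice).

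Sar1b (gene ID 66397), the small GTPase that carries lipoproteins out of the endoplasmic reticulum, had a mean level of 12.40. Its offsets were -1.46e-05, 1.39e-06 and 1.51e-05 in 002MSXH mice, against -1.83e-05, -4.89e-07 and 1.01e-05 in HFD mice. The groups overlapped over nearly their whole ranges, at a standardized difference of 0.16 (-0.72 to 1.04; limma p = 0.719, adjusted p = 0.928).

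**Figure D2:**
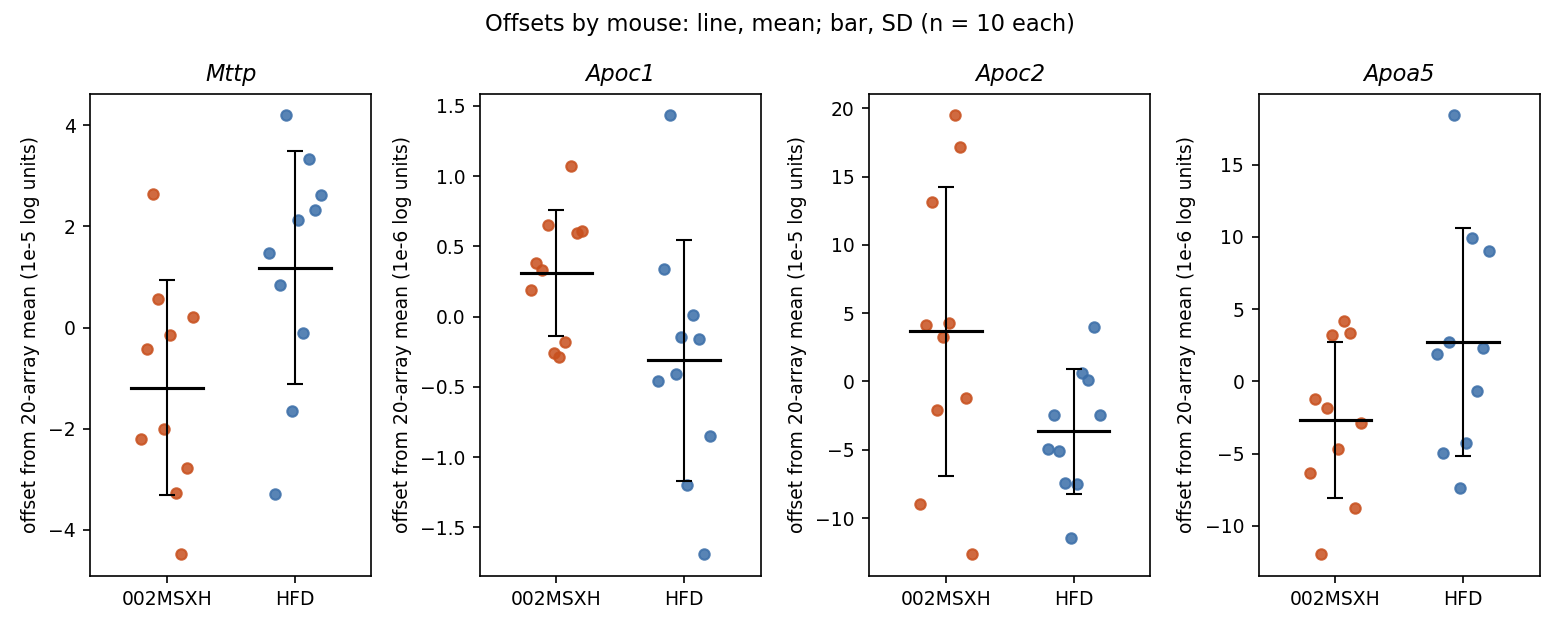
Offset from the mean of all 20 arrays (vertical axes, in 1e-5 or 1e-6 log units as labelled) of Mttp, Apoc1, Apoc2 and Apoa5 in each 002MSXH mouse (left in each panel) and each HFD mouse (right); lines are means and bars SD (n = 10 each). The groups overlap in every panel, and the standardized difference of Mttp is -1.07.

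The lipases and plasma enzymes were evenly split, with 4 of 8 above in 002MSXH and 4 below and a median standardized difference of 0.06. Lpl (gene ID 16956), which releases fatty acids from circulating triglyceride and is made mainly by muscle and fat, had levels of 8.15, 8.22 and 8.54 in 002MSXH mice (lowest, median, highest), against 8.12, 8.17 and 8.26 in HFD mice. Mouse 4, at 8.54, and mouse 6, at 8.35, stood above all others, which reached at most 8.27. The second Lpl probe set gave 6.82 and 6.74 on these mice, against at most 6.71 elsewhere. The standardized difference was 0.84 (-0.09 to 1.75; limma p = 0.0701, adjusted p = 0.509), with 76 of 100 pairs higher in 002MSXH, and 0.61 (adjusted p = 0.681) without mice 4 and 6. On these arrays all 10 muscle markers reached their highest value on 1 of the 2 mice, and 8 of 10 were above every other mouse on both. The 4 measured adipocyte markers of 6 averaged 6.840 and 6.841 there, against at most 6.833 elsewhere, with Adipoq and Lep under the array median throughout. Of these 4 adipocyte markers, 2 were above every other mouse on both. The part of muscle or fat RNA in the Lpl level was not tested. In bulk liver RNA, more cells of a type and more RNA per cell cannot be told apart.

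Lipg (gene ID 16891), the endothelial lipase that acts on high density lipoprotein, had offsets of -3.73e-03, 2.73e-04 and 1.83e-03 around a level of 6.54 in 002MSXH mice, against -3.25e-03, 4.58e-04 and 3.45e-03 in HFD mice. The groups overlapped, and the standardized difference was -0.56 (-1.45 to 0.34; limma p = 0.215, adjusted p = 0.671). Pon3 (gene ID 269823), a lactonase carried on high density lipoprotein, had offsets of -1.45e-04, -8.82e-06 and 7.78e-05 around a level of 8.53 in 002MSXH mice, against -2.80e-05, 1.39e-05 and 5.30e-05 in HFD mice. The HFD mice lay within the wider 002MSXH range, and the standardized difference was -0.54 (-1.42 to 0.36; limma p = 0.238, adjusted p = 0.691).

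Of the rest, Lcat, which esterifies cholesterol on high density lipoprotein, had a level of 11.13 and a standardized difference of 0.21. Pltp, the phospholipid transfer protein, had a level of 8.51 and a difference of 0.45, and its second probe set stood at -0.05. Lipa, the lysosomal acid lipase, had a level of 10.24 and a difference of 0.27. Gpihbp1, the capillary anchor of lipoprotein lipase, had a level of 9.18 and a difference of -0.09. Pon1, the paraoxonase of high density lipoprotein, had a level of 13.46 and a difference of -0.20.

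Among the receptors and transporters, 5 of 7 had a 002MSXH mean above that of HFD, with a median standardized difference of 0.21. Vldlr (gene ID 22359), a receptor that binds triglyceride-rich lipoproteins in muscle and fat, had levels of 6.4725, 6.4736 and 6.4792 in 002MSXH mice, against 6.4720, 6.4730 and 6.4744 in HFD mice. Mouse 4 was the highest of the 20 mice in all 6 of its probe sets, and mouse 6 followed at 6.4752. The standardized difference was 0.86 (-0.07 to 1.76; limma p = 0.0665, adjusted p = 0.501), with 81 of 100 pairs higher in 002MSXH, and 0.75 (adjusted p = 0.606) without mice 4 and 6. All 6 probe sets were above 0 with these mice, from 0.28 to 0.86, but without them 4 of the 6 were below 0, at -0.57, -0.91, -0.42 and -0.07, and the remaining probe set was at 0.37. The direction of Vldlr thus depends on these mice and on the probe set. It was the member whose level was under the median of every array. Mice 4 and 6, the highest in Vldlr, were also those with the high muscle marker levels given above. A relation between the markers and Vldlr was not tested.

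**Figure D3:**
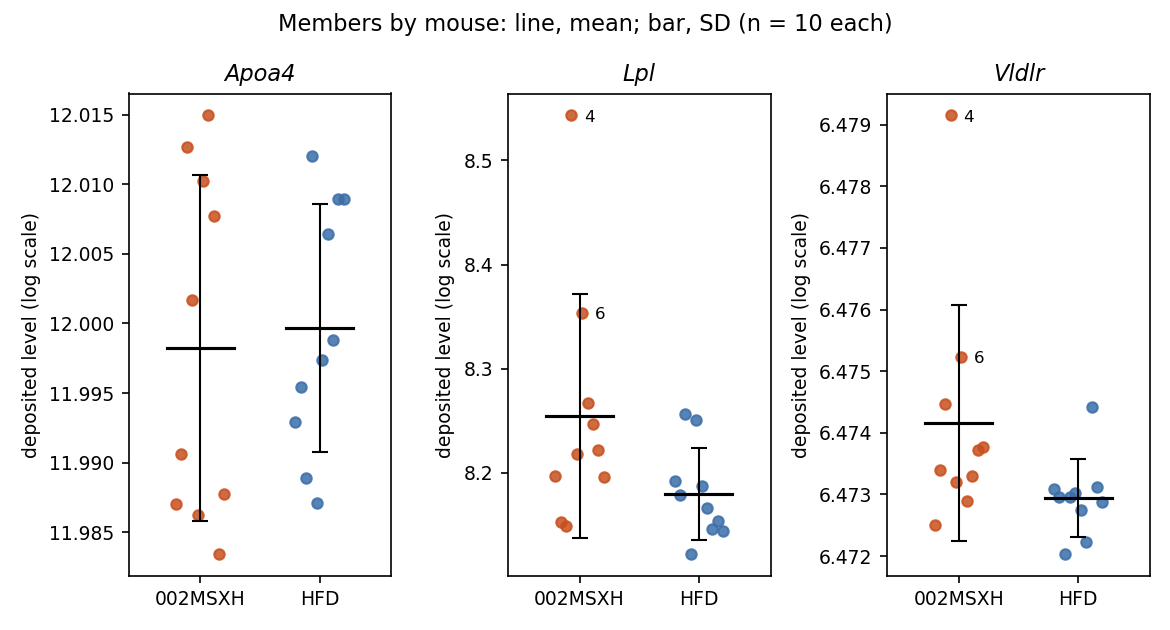
Deposited level on a log scale (vertical axes) of Apoa4, Lpl and Vldlr in each 002MSXH mouse (left in each panel) and each HFD mouse (right); lines are means and bars SD (n = 10 each), and 002MSXH mice 4 and 6 are numbered. Apoa4 spreads widely in both groups, while the highest Lpl and Vldlr values belong to mouse 4.

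Abcg1 (gene ID 11307), which passes cholesterol to high density lipoprotein, had offsets of -4.43e-05, 7.35e-06 and 3.50e-05 around a level of 7.70 in 002MSXH mice, against -4.32e-05, -8.45e-06 and 2.52e-05 in HFD mice. The groups overlapped, and the standardized difference was 0.42 (-0.47 to 1.30; limma p = 0.350, adjusted p = 0.765). Sort1 (gene ID 20661), a sorting receptor that binds apolipoprotein B, had offsets of -2.36e-05, -8.82e-06 and 3.29e-05 around a level of 7.69 in 002MSXH mice, against -1.28e-05, -6.72e-07 and 2.95e-05 in HFD mice. The HFD mice lay within the 002MSXH range, and the standardized difference was -0.35 (-1.23 to 0.54; limma p = 0.439, adjusted p = 0.810). Its other probe sets gave 0.76 and 0.50.

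The remaining transporters and receptors gave intervals that held 0 in the probe sets that stand for them. Scarb1, the high density lipoprotein receptor, had a level of 10.12 and a standardized difference of 0.33. Its other probe sets gave 0.20 and 0.88 (limma p = 0.0589, adjusted p = 0.485). With the replicate block, where the numbers are not known to pair the mice, the probe set at 0.88 gave 1.26 (limma adjusted p = 0.387). Lrp1, a remnant receptor, had a level of 9.13 and a difference of 0.21. Lrpap1, the chaperone of that receptor family, had a level of 9.21 and a difference of 0.19. Abca1, which lipidates new high density lipoprotein, had a level of 10.98 and a difference of -0.08, and its other probe sets gave -1.11 and -0.27.

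Across all 60 probe sets of the members, 4 were at an unadjusted p under 0.05, all with the 002MSXH mean below that of HFD (5 without mice 4 and 6, of which 4 below), and 0 passed an adjusted p of 0.05 (0% of all probe sets). Over all probe sets the unadjusted share was 10.7%, made of 4.69% with lower and 6.03% with higher values in 002MSXH. The 002MSXH mean was above in 34 of 60 (31 without mice 4 and 6), and in 53% of all probe sets. Beside the Mttp probe set these were 1 of Lipg (-1.40, -2.37 to -0.40; adjusted p = 0.286, under the array median on every array), 1 of Apoh (-1.16, -2.10 to -0.19; adjusted p = 0.356) and 1 of Abca1 (-1.11, -2.05 to -0.15; adjusted p = 0.372), from limma over 34945 probe sets. For Apoh the main probe set gave 0.60, of the other sign. Of the 17 members with several probe sets, 4 had probe sets that differed in sign, namely Apoh, Apom, Pltp and Sort1.

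Of 51 pairs of probe sets of the same member, 35 were correlated over the 20 mice by Pearson r, after the group means had been subtracted. The threshold was an adjusted permutation p under 0.05, and 26 were correlated without mice 4 and 6. By Spearman rho, some of the 35 fell short, with adjusted permutation p of 0.0605 in Lrpap1 and 0.0630 and 0.0605 in Vldlr. Probe set pairs of other genes were not tested, so no share over all genes stands beside this count. The 6 pairs of Apoa1 probe sets had r of 0.840 to 0.939, the Apoa4 pair 0.994, the Lpl pair 0.982 and the Mttp pair 0.849. Without mice 4 and 6 these were 0.820 to 0.933, 0.994, 0.928 and 0.863. Vldlr pairs leaned on these mice: the pair with the highest r, 0.944, had 0.592 without them, and a pair with r of 0.909 had -0.0727. No pair of Apoh (r = 0.133), Lrp1 (r = -0.239) or Abcg1 (r = 0.444) was correlated at that threshold. Nor were the 3 Sort1 pairs (r = -0.193 to 0.0767). Some pairs of Lipa, Lrpap1 and Vldlr also fell short, such as 1 of Lipa with r of 0.130. A shared pattern over the mice was thus not detected in these pairs.

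On the deposited scale the Apoa4 probe set had a larger SD between mice than those of most genes, within both diets. Its pooled SD of 0.0108 ranked 141 of 18193 genes, and only Lpl of the other members was also above 0.01. The SD also differs between probe sets of 1 gene, as in Lipg, with 9.25e-06 and 4.88e-03 in 2 of them. The rank thus compares probe sets and does not show that the gene itself varied more. Apoa4 levels were 11.983, 11.996 and 12.015 in 002MSXH mice, against 11.987, 11.998 and 12.012 in HFD mice. In 002MSXH, 5 mice lay at or below 11.991 and 5 at or above 12.002, while HFD mice also filled the gap between them. The groups overlapped almost fully, with 45 of 100 pairs higher in 002MSXH (limma adjusted p = 0.940).

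Apoa1 and Apoa4 moved together from mouse to mouse on the deposited scale. Apoa1, Apoc3, Apoa4 and Apoa5 are neighbours in 1 cluster, and Apoe, Apoc1, Apoc4 and Apoc2 in another on chromosome 7. Among the 12 pairs within these clusters, deviations from the group means were correlated in 1, Apoa1 with Apoa4, with r = 0.812 and rho = 0.785 (two-sided permutation p = 6e-05 and 0.00022, adjusted over the 12 pairs 0.00072 and 0.00264). Within 002MSXH r was 0.859 and within HFD 0.745. Leaving out the 2 mice farthest from the median gave 0.785, and leaving out mice 4 and 6 gave 0.802. Each of the 4 Apoa1 probe sets tracked Apoa4, with r of 0.785 to 0.839. Apoa1's own offsets were minute, from -2.89e-07 to 1.81e-07 in 002MSXH and from -1.99e-07 to 1.91e-07 in HFD. After quantile normalization Apoa1 no longer varied, so its pairs could not be correlated, and 0 of the cluster pairs were. After centring of the arrays 9 were. Centring shifts every gene of an array by the same amount, and array medians ranged from 6.5216 to 6.5226, far more than these offsets. Neither setting can thus show whether Apoa1 and Apoa4 moved together.

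The neighbours did not share this pattern detectably. Apoa4 and Apoa5 had r = 0.419 (adjusted permutation p = 0.342), at 0.114 within 002MSXH and 0.762 within HFD. Apoc3, which lies between Apoa1 and Apoa4, had r of 0.338 with Apoa1 and 0.102 with Apoa4 (adjusted permutation p = 0.427 and 0.696). In the Apoe cluster r ran from -0.344 for Apoe with Apoc2 to 0.272 for Apoe with Apoc1 (adjusted permutation p = 0.427 and 0.519).

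Over all 435 pairs of members, a family added after the values had been seen, 4 were correlated at an adjusted permutation p under 0.05. Apoa4 and Gpihbp1 had r = 0.838 and rho = 0.856 (permutation p = 5e-05 and 2e-05, adjusted 0.0131 and 0.00870), at 0.867 within 002MSXH and 0.777 within HFD, and 0.833 without the 2 farthest mice. Apom and Pon3 had r = 0.815 and rho = 0.805 (permutation p = 0.0002 and 0.00014, adjusted 0.0290 and 0.0305), at 0.826 within 002MSXH and 0.768 within HFD, and 0.697 without the 2 farthest mice. Apoa1 and Gpihbp1 had r = 0.736 and rho = 0.748 (permutation p = 0.00037 and 0.00035, adjusted 0.0402 and 0.0313), at 0.767 within 002MSXH and 0.699 within HFD, and 0.708 without the 2 farthest mice. Apoa1 with Apoa4 was the remaining pair. Mouse 4 had the lowest Apom level of the 20 mice, 12.15047, and a Pon3 level of 8.52691, below every HFD mouse. Without mice 4 and 6, 4 of the 435 pairs were correlated, but which pairs these were is not given here. After quantile normalization 22 were. Apoa1 did not vary there, so its pairs with Apoa4 and Gpihbp1 cannot be among them. Whether Apoa4 with Gpihbp1 or Apom with Pon3 were among them is not given here. An absolute r of at least 0.8 was found in 3 of 435 member pairs (0.690%) and in 0.101% of all gene pairs. At least 0.7 was found in 6 member pairs (1.38%) and 0.608% of all gene pairs, and at least 0.6 in 19 (4.37%) and 2.31%. The permutation test was not run over all gene pairs, so the 4 correlated pairs have no such share beside them. Of the 18192 other genes, 143 had r of at least 0.8 with Apoa4 and 244 had r of at most -0.8, so Apoa4 moved with many genes outside the list as well.

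**Figure D4:**
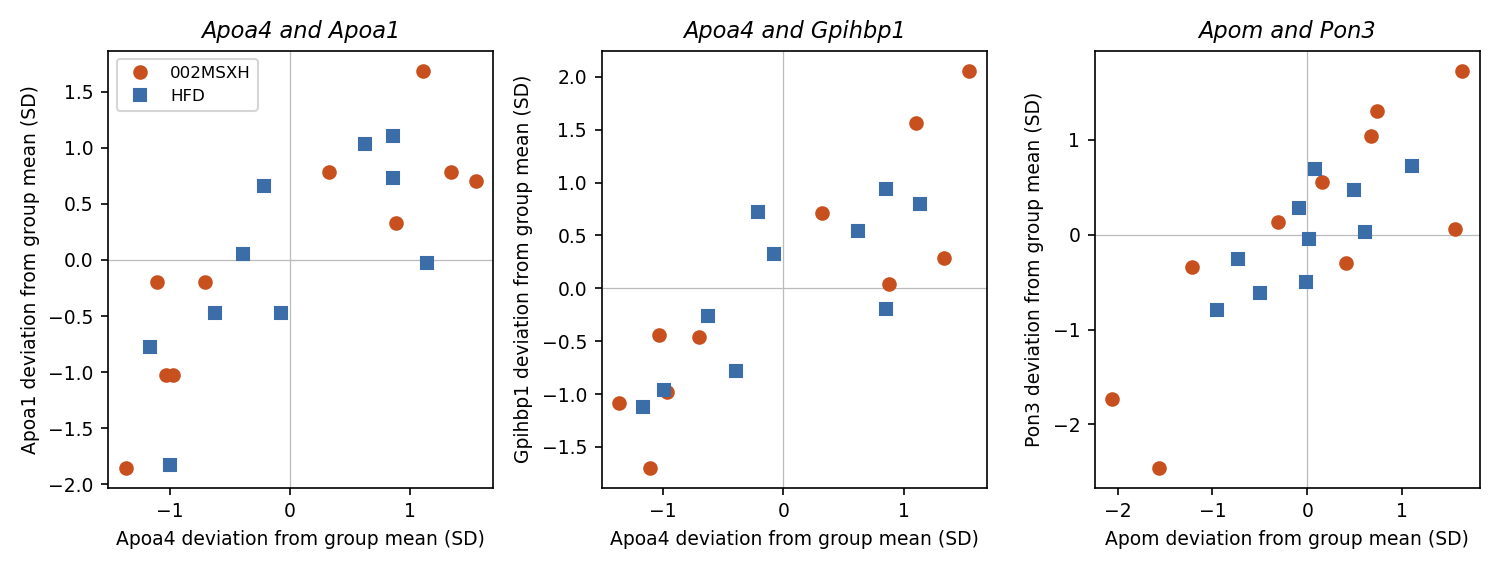
Deviation of each mouse from its group mean, in pooled SD, for Apoa4 against Apoa1, Apoa4 against Gpihbp1 and Apom against Pon3; circles are 002MSXH mice and squares HFD mice. Both groups lie along the same rising band in each panel, with r of 0.812, 0.838 and 0.815.

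**Figure D5:**
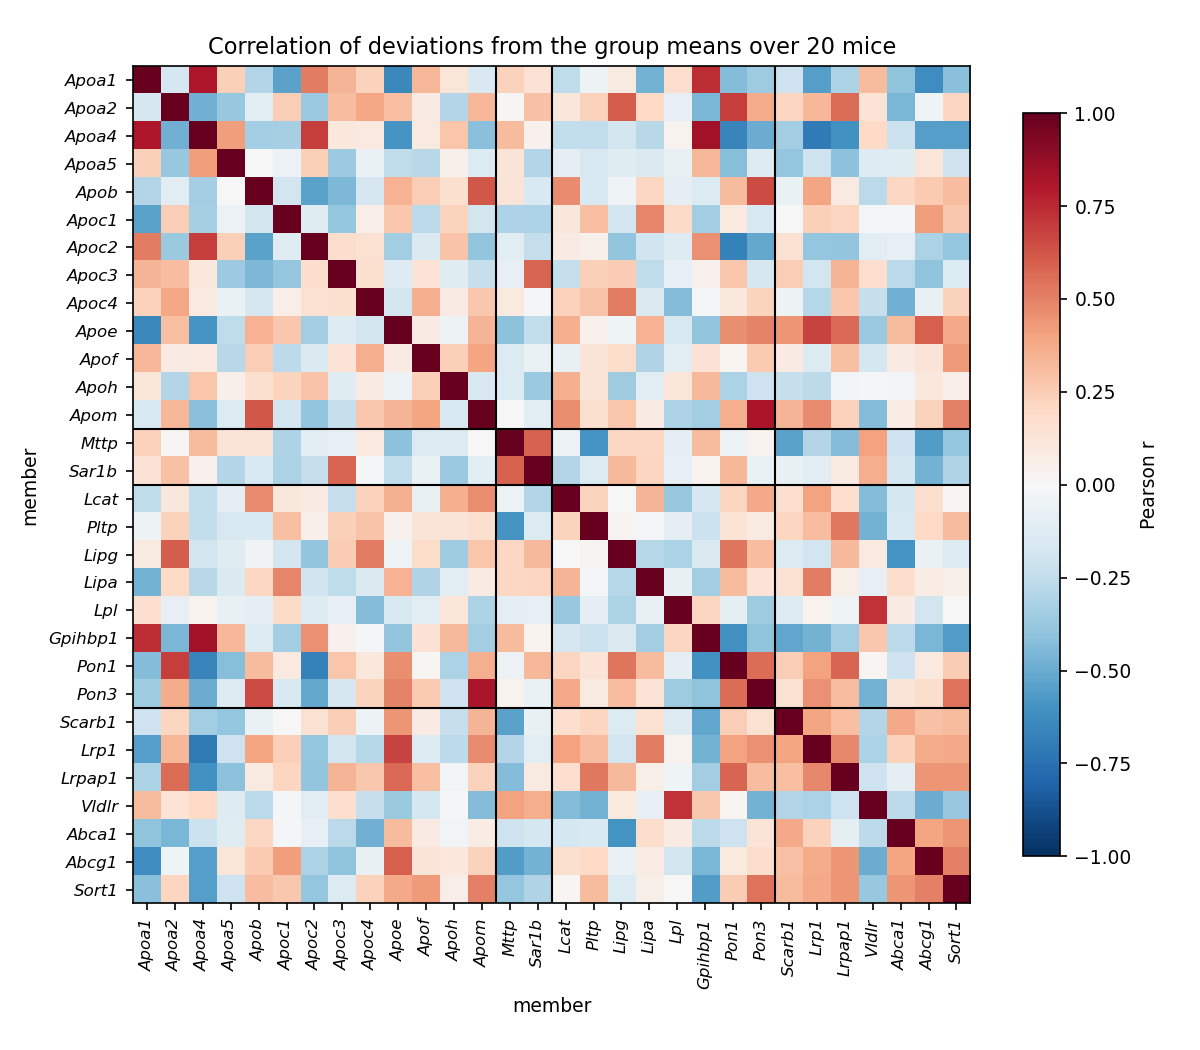
Pearson r of the deviations from the group means over 20 mice for every pair of the 30 members, ordered by role (black lines separate the roles). Apoa1, Apoa4 and Gpihbp1 were positively correlated with each other, as were Apom and Pon3, in cells that do not lie side by side.

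Gpihbp1 is made by capillary endothelium, so the 6 endothelial markers were set beside it and Apoa4, as 12 relations added after the values had been seen. Lyve1, a marker of sinusoidal and lymphatic endothelium, had r of 0.781 with Gpihbp1 and 0.814 with Apoa4 (rho 0.818 and 0.829, adjusted permutation p of r 0.00088 and 0.00042). Kdr, an endothelial growth factor receptor, went the other way, with r of -0.691 and -0.807 (rho -0.708 and -0.791, adjusted permutation p of r 0.00333 and 0.00024). Cdh5, the endothelial cadherin, had r of -0.450 with Gpihbp1 and -0.633 with Apoa4 (rho -0.468 and -0.606, adjusted permutation p of r 0.0940 and 0.00833). Pecam1, Stab2 and Clec4g were not correlated with either at that threshold. Lyve1 and Kdr thus correlated with both members in opposite directions.

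Lpl and Vldlr had r = 0.721 but rho = 0.212 (permutation p = 0.0379 and 0.411, adjusted over 435 pairs 0.308 and 0.693). Without mice 4 and 6, r was -0.459, so the relation rests on these mice. Mttp and Sar1b had r = 0.591 and rho = 0.606 (permutation p = 0.0083 and 0.00705, adjusted 0.153 and 0.143), at 0.903 within 002MSXH and 0.285 within HFD. This pair was not past the threshold, and the difference between the groups was not tested.

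Of 50 other genes of lipoprotein metabolism, among them lipase inhibitors, assembly factors, acute phase apolipoproteins and nuclear receptors, 43 were measured. The 002MSXH mean was above that of HFD in 26 and below in 17, where 54.7% of all genes were above, with a median standardized difference of 0.20, against 0.07 over all genes. None passed an adjusted p of 0.05. Of the 43, 1 (2.33%) was at an unadjusted p under 0.05, a share below the 10.9% of all genes: Angptl8, a fed-state hormone of liver and fat. Its levels were 7.1000, 7.1019 and 7.1061 in 002MSXH mice, against 7.0985, 7.0998 and 7.1029 in HFD mice, and its standardized difference was 1.26 (0.28 to 2.21; limma p = 0.00980, adjusted p = 0.311), with 84 of 100 pairs higher in 002MSXH.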

How the data were processed

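Liver RNA of 20 mice was measured on Affymetrix 3' arrays, per the labels' protocols. The authors deposited 1 value per probe set and array, taken as log2 from a range of 5.17 to 15.01. Base, background correction and normalization: not given in the sources used here. Of 45101 probe sets, 34945 had 1 symbol in the platform annotation, 932 had several, 9160 were not listed and 64 were controls; only the first were used. No filter on level was applied. Precision is limited by the number of arrays. Groups came from the sample titles.

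limma 3.58.1 in R 4.3.3 (lmFit, eBayes with a trend, two-sided) was fitted over 18193 genes and over all single-symbol probe sets, with Benjamini-Hochberg adjustment at 0.05. It was also run on simulated data with added shifts and independent noise. The recovery is not given here, so this run does not show how small a difference could be detected. Intervals are noncentral t at 95%. Correlations used deviations from group means and 100000 permutations within groups (scipy 1.17.1, numpy 2.4.6). Figures were drawn with matplotlib 3.10.9. Replicate numbers were not taken to pair the mice. Same-numbered mice correlated at -0.265 to 0.165, but mice of different numbers were not set beside them, so this cannot show whether a pairing exists.

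The members, roles and lists were chosen with earlier results of these data known. All members are named, and full values are given for those at an unadjusted p under 0.05, the 3 of smallest p in each role (both in assembly) and Lpl; Apoa1, Apoa4, Gpihbp1 and Apom, and the sequences and endothelial relations, were singled out after their values were seen. Alternatives were quantile normalization, array centring, a replicate block, probe sets averaged per gene, eBayes without trend, genes above the median gene mean, a rank sum test, and leaving out mice 4 and 6 or each array.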

Additional observations from a re-analysis of the deposited data

Results flagged for a closer look

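In each group of 10 mice, the gap of the highest or lowest mouse to its neighbour was divided by the range of the group and set against Dixon's 95% critical value for 10 values. Of 60 groups tested (30 members in 2 diets) 4 were past it, where chance flags about 1 in 20. Lpl in 002MSXH had mouse 4 at 8.543, above mouse 6 at 8.354, a ratio of 0.481. Vldlr in 002MSXH had mouse 4 at 6.4792, above mouse 6 at 6.4752, a ratio of 0.589; skeletal muscle markers averaged 8.35 and 7.68 on these mice, and their part was not tested. Vldlr in HFD had mouse 8 at 6.4744, above the next at 6.4731, a ratio of 0.548. Apob in HFD had mouse 2 at 13.39922, below the next at 13.39937, a ratio of 0.555.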

How the results depend on the processing

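No member passed an adjusted p of 0.05 with limma under any alternative run. Over all genes, 1 was called with the mean of each gene's probe sets, 4 with a rank sum test and 0 to 3 with an array left out. Members at an unadjusted p under 0.05 numbered 1, against 0 after quantile normalization, 0 after centring, 0 after centring without mice 4 and 6, 2 after quantile normalization without them, 2 with the replicate block, 2 with the mean of probe sets, 3 with the rank sum test and 0 to 3 with an array left out (0 without HFD mouse 4 or 002MSXH mouse 8). Of the 2 members with the replicate block, 1 had the 002MSXH mean above that of HFD and 1 below. Probe sets of the members at that p numbered 4, against 0 after quantile normalization, 1 after centring, 7 with the replicate block and 3 to 8 with an array left out. All 4 had the 002MSXH mean below, while with the replicate block 4 had it below and 3 above. Members above in 002MSXH numbered 16, against 3 of the 19 that still varied after quantile normalization, 2 after centring, 10 after centring without mice 4 and 6 and 12 of the 16 that still varied after quantile normalization without them; with an array left out they numbered 15 to 19. Centring moved the median difference of all genes from 0.07 to -0.66 and quantile normalization to -0.55. Array medians ranged from 6.5216 to 6.5226, while 26 of 30 members had a pooled SD under 0.001. Cluster pairs correlated numbered 1, against 0 after quantile normalization and 9 after centring. Of all member pairs 4, 22 and 377 were. Of the 51 probe set pairs 35, 31 and 41 were by Pearson r, with 26 without mice 4 and 6. Centring shifts all genes of an array alike by more than most members vary, so its counts of pairs cannot show that genes moved together. After quantile normalization some members, such as Apoa1, no longer varied, so their pairs could not be correlated. Differences that turned sign after centring were Apoc3 -0.67, Apoa2 -0.67, Apoe -0.66, Apoh -0.66, Sar1b -0.66, Apoc1 -0.66, Lcat -0.65, Lrpap1 -0.64, Pltp -0.63, Lipa -0.60, Abcg1 -0.60, Lrp1 -0.59, Scarb1 -0.54, Apoc2 -0.33. After quantile normalization they were Lipa -0.51, Lcat -0.46, Sar1b -0.45, Apoc2 -0.45, Lrpap1 -0.32, Scarb1 -0.28, Pltp -0.23, Lrp1 -0.17, Abcg1 -0.0061, Gpihbp1 0.29. Without mice 4 and 6 they were Apoc3 -0.0057, Abca1 0.015, with centring as well Apoc3 -0.051, Apoa2 -0.0504, Apoe -0.043, Apoh -0.043, Sar1b -0.042, Apoc1 -0.032, and with quantile normalization, where 16 members still varied, Lcat -0.20, Pon3 0.17, Mttp 0.41, Gpihbp1 0.74, Sort1 1.01. With the mean of probe sets they were Apoh -1.15, Sort1 0.28. With an array left out, differences that crossed 0 ranged over Abca1 -0.43 to 0.091, Apoa4 -0.32 to 0.018, Apoc3 -0.32 to 0.16, Apof -0.31 to 0.059, Gpihbp1 -0.36 to 0.10, Lrpap1 -0.056 to 0.39, Pon1 -0.41 to 0.015, Sar1b -0.036 to 0.35. The cause of these changes of sign was not tested.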
